A study of Mus musculus with 12 samples.

Results

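The genes of 10 nuclear receptors other than the fat cell receptor PPARgamma were followed through RNA sequencing of 3T3-L1 adipocytes in which the forkhead transcription factor Foxp1 was raised or lowered. They were chosen by symbol, with earlier results of these data known. They are the PPAR genes Ppara and Ppard, the retinoid X receptor genes Rxra, Rxrb and Rxrg and the liver X receptor gene Nr1h2. The thyroid hormone receptor gene Thra, the COUP transcription factor genes Nr2f1 and Nr2f2 and the orphan receptor gene Nr4a1 complete the 10. All 10 were among the 28948 genes listed, and 8 of them were among the 11245 genes with at least 1 RPKM (reads per exon kilobase at a common library size) in at least 3 of 12 libraries, the set that was tested. Ppara and Rxrg fell under that level.

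3T3-L1 is a line of mouse embryo fibroblasts (strain given as Swiss mouse) that turns into fat cells under hormones. There were 4 groups of 3 libraries each: an empty vector control, constitutive overexpression of FOXP1, a scrambled shRNA control and a Foxp1 shRNA. Every group was differentiated with troglitazone at 10 µM, insulin at 5 µg/ml, isobutyl methylxanthine at 0.5 mM and dexamethasone at 1 µM. From day 4 insulin alone was left in the medium, and growth medium followed on day 6. Troglitazone is a PPARgamma ligand, and dexamethasone activates the glucocorticoid receptor, another nuclear receptor, so all 4 groups, controls included, had been exposed to receptor ligands. The day of harvest, whether the constructs went in before or after differentiation, and whether replicates are separate cultures are not given in the sources used here, so p-values measure only the spread between these libraries.

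Nuclear receptors are transcription factors, many of which are switched by small fat-soluble ligands. RXRs are the shared dimer partners: PPARs, LXRs and thyroid hormone receptors bind DNA mostly as pairs with an RXR. PPARdelta senses fatty acids and drives fat oxidation genes, LXRs sense oxysterols, and the thyroid hormone receptor alpha is the main form of that receptor in many tissues. COUP-TFII, the product of Nr2f2, restrains fat cell formation, and Nr4a1 is an early response gene induced by cyclic AMP.

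Assigned reads numbered 35252019 to 38450002 per library, by the step size of the values. Foxp1 followed the labels, with group means of 1.80 RPKM for the empty vector, 6.56 for overexpression, 2.18 for the scrambled hairpin and 1.11 for the knockdown. All 10 mature fat cell markers were tested, and their summed level was 9507 to 9722 RPKM in empty vector libraries, 3761 to 4051 with overexpression, 6932 to 7174 with the scrambled hairpin and 9573 to 10260 with knockdown. Of 8 preadipocyte markers 6 were tested, of which 3 rose and 2 fell with overexpression and 3 fell with knockdown. The 8 summed to 101.3 to 112.9 RPKM with the empty vector and 112.3 to 119.3 with overexpression. With the scrambled hairpin they summed to 140.9 to 159.7 RPKM and with knockdown to 122.7 to 137.8. The endothelial and macrophage markers summed to at most 0.49 and 5.95 RPKM. The 5 muscle markers summed to 0.646 to 0.732 RPKM with the empty vector, 2.06 to 3.08 with overexpression, 0.508 to 0.764 with the scrambled hairpin and 0.125 to 0.248 with knockdown, with Myh4 and Myod1 at 0 in every library, and the 1 tested, Mb, was called higher with overexpression, the group that brought it into the tested set, and lower with knockdown. Mitochondrial transcripts took 8.61% to 9.35% of reads in empty vector, 9.65% to 13.1% in overexpression, 4.80% to 5.69% in scrambled and 5.97% to 6.82% in knockdown libraries, and overexpression replicate 3 stood apart with the 13.1%. The part of these marker levels and of the mitochondrial share in the receptor results was not tested. No receptor call in the overexpression comparison changed when overexpression replicate 3, or any other single library, was left out. In bulk RNA, fewer cells that express a gene and less RNA per cell cannot be told apart.

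Reads of related receptors can be split only where their sequences differ. The longest stretch of identical coding sequence between related transcripts is shown for the pairs where it is longest, since a read lying wholly inside it fits either gene. In the COUP genes it covers 59 bases of the first exon of both, at chr13:78198284-78198342 in Nr2f1 and chr7:70360052-70360110 in Nr2f2, both on the minus strand of GRCm38. In Rxra and Rxrb it covers 29 bases of the tenth exon of both, at chr2:27759596-27759624 and chr17:34037439-34037467 on the plus strand.
Nr2f1 and Nr2f2: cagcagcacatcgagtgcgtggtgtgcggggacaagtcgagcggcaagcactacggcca
Rxra and Rxrb: ctggagcacctgttcttcttcaagctcat
The other pairs compared shared at most 27 bases (Rxra with Rxrg), 26 (Thra with Thrb), 24 (Nr4a1 with Nr4a3), 20 (Rxrb with Rxrg) and 17 (Ppard with Pparg, and Nr1h2 with Nr1h3). The treatment of reads that match several genes is not given in the sources used here.

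Per length of transcript and by the mean over 12 libraries, the 10 genes took ranks 2 to 28 among the 43 nuclear receptor genes listed. Rxra was the most abundant of them, with a mean of 82.9 RPKM over the 12 libraries, behind Pparg (98.03 RPKM). In the scrambled group the order was the other way round, with 93.72 RPKM for Rxra and 88.72 for Pparg. Thra had 33.6 RPKM, and was above Ppard in the empty vector and overexpression groups but not in the scrambled (32.77 against 37.6) and knockdown groups (29.91 against 30.1). Nr1h2 and Ppard lay side by side at 27.6 and 27.3 RPKM. Rxrb averaged 20.6, Nr4a1 9.17, Nr2f2 3.94 and Nr2f1 1.39 RPKM. Rxrg averaged 0.67 RPKM, and Ppara, the PPAR form known from liver, 0.084 RPKM. The ranges of Nr1h2 (23.75 to 31.05 RPKM) and Ppard (17.62 to 38.27) overlapped, so their order is not fixed by these libraries.

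**Figure D1:**
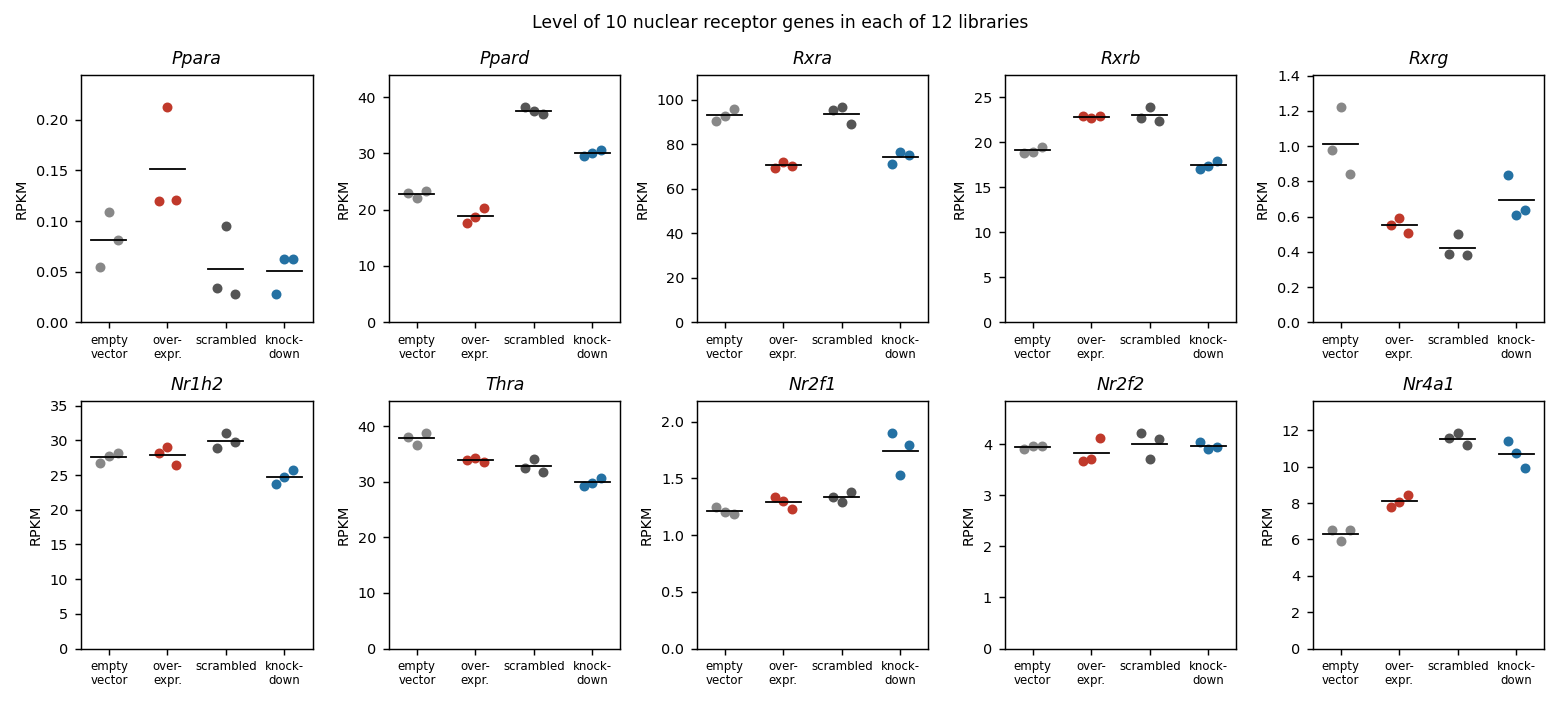
Level of each of the 10 receptor genes in RPKM (vertical axes, each from 0) in the 12 libraries, 1 point per library, by group, with a line at the group mean. Ppard is highest in the scrambled libraries (36.93 to 38.27 RPKM), Rxra is lower in the overexpression and knockdown libraries than in any control library, and Ppara stays at or under 0.213 RPKM throughout.

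With Foxp1 overexpressed, Rxra, Ppard and Thra fell and Rxrb and Nr4a1 rose, while Nr1h2, Nr2f1 and Nr2f2 did not pass the test. That is 5 of 8 tested genes (62.5%), 2 higher and 3 lower, at a Benjamini-Hochberg adjusted p under 0.05 in limma. Over all 11245 genes 51.4% passed, 31% higher and 20.3% lower of them. The split over all genes depended on the scaling. It was 3490 higher and 2285 lower on RPKM, 2947 and 2791 after median-ratio scaling and 2437 and 2580 on TPM. The median log2 fold change of the 8 receptors was -0.01, beside 0.04 over all genes tested. In the same 5 genes the overexpression and empty vector libraries did not overlap, as in 57.5% of all genes.

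With Foxp1 knocked down, Rxra, Rxrb, Ppard, Nr1h2 and Thra fell and Nr2f1 rose, while Nr2f2 and Nr4a1 did not pass. That is 6 of 8 (75.0%), 1 higher and 5 lower, where 49.7% of all genes passed, 18.7% higher and 31% lower. Over all genes the split was 2100 higher and 3487 lower on RPKM, 2783 and 2791 after median-ratio scaling and 1615 and 3710 on TPM. The median log2 fold change of the 8 receptors was -0.20, beside -0.04 over all genes tested. Groups did not overlap in 6 of 8, as in 59.6% of all genes.

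The receptors Rxra, Ppard and Thra, were lower than their own control in both comparisons, a pattern of 5.79% of all genes. Rxrb alone of the 8 was called higher with overexpression and called lower with knockdown, as 12.1% of all genes were. The overexpression and knockdown comparisons share no libraries.

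**Figure D2:**
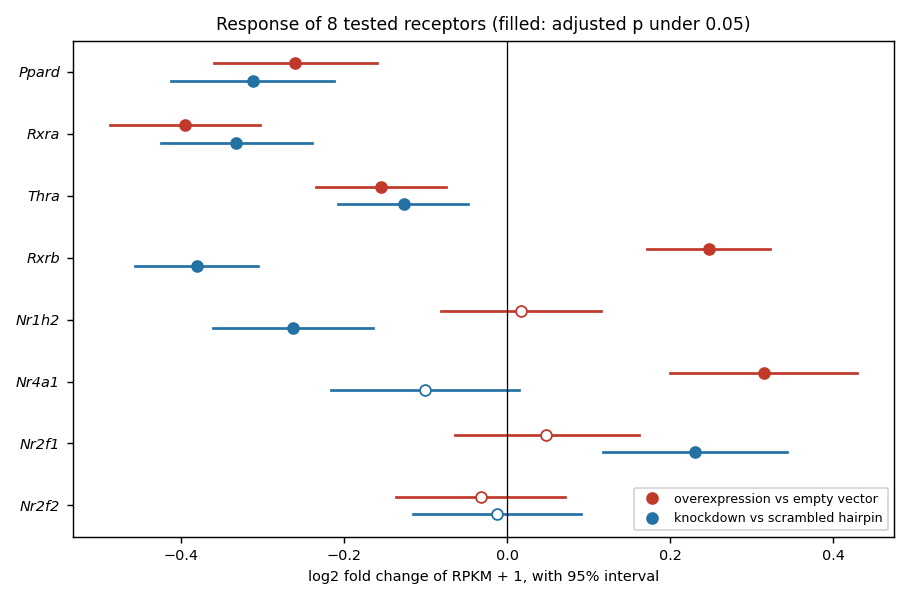
Log2 fold change of RPKM + 1 (horizontal axis) of the 8 tested receptors with overexpression against empty vector and with knockdown against scrambled hairpin, with 95% intervals from the limma model and filled points at adjusted p under 0.05. Ppard, Rxra and Thra lie left of 0 in both comparisons, and Rxrb lies right of 0 with overexpression and left of it with knockdown.

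Rxra encodes RXRalpha, the major dimer partner here by level (chromosome 2, 27676440 to 27762957, plus strand, GRCm38). Its level was 90.63, 92.56 and 95.88 RPKM in the empty vector libraries and 69.39, 71.84 and 70.27 with overexpression. It was 95.40, 96.84 and 88.91 RPKM in the scrambled libraries and 71.05, 76.54 and 74.99 with knockdown. Every control library was above every library with altered Foxp1, while the controls overlapped each other and so did the overexpression and knockdown libraries. The overexpression mean was 0.758 times that of the empty vector (log2 fold change -0.39, 95% interval -0.49 to -0.30, adjusted p = 7.51e-06). The knockdown mean was 0.792 times the scrambled mean (-0.33, interval -0.42 to -0.24, adjusted p = 5.2e-05). The difference between these responses was -0.06 (interval -0.19 to 0.07, adjusted p = 0.402), and it passed only after median-ratio scaling (-0.16, adjusted p = 0.0488).

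Rxrb encodes RXRbeta, the broadly expressed form (chromosome 17, 34031812 to 34038399, plus strand). It stood at 18.85, 18.96 and 19.50 RPKM in the empty vector libraries and 22.95, 22.69 and 22.91 with overexpression. The scrambled libraries had 22.72, 23.94 and 22.41 RPKM and the knockdown libraries 17.00, 17.42 and 17.89. No library of either comparison overlapped with its control, although the overexpression and scrambled groups overlapped each other. Rxrb rose 1.2-fold with overexpression (log2 fold change 0.25, interval 0.17 to 0.32, adjusted p = 7.62e-05). With knockdown it fell to 0.758 times the scrambled mean (-0.38, interval -0.46 to -0.31, adjusted p = 4.4e-06). The responses differed by 0.63 (interval 0.52 to 0.73, adjusted p = 4.37e-07).

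The mix of RXR transcripts with overexpression did not overlap with that of any other group. The Rxra level was 4.87 ± 0.0553 times that of Rxrb in the empty vector group and 3.085 ± 0.0727 times it in the overexpressing cells (SD, n = 3 each). In the scrambled and knockdown groups the ratio was 4.07 ± 0.117 and 4.25 ± 0.12, and these ranges, which were not tested (3.968 to 4.198 and 4.18 to 4.393) overlapped. The summed RXR level was 113.1 RPKM with the empty vector, 93.9 with overexpression, 117.2 with the scrambled hairpin and 92.3 with knockdown. The summed level overlapped between the overexpression (92.9 to 95.1 RPKM) and knockdown libraries (88.9 to 94.6), while Rxrb made up 23.9% to 24.7% of it in the former and 18.4% to 19.1% in the latter.

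Rxrg, the RXRgamma gene best known from muscle and brain (chromosome 1, 167598384 to 167639623), made up at most 1.085% of RXR transcripts in any library. It was too low for the tested set, reaching 1 RPKM in 1 of 12 libraries, but was counted in all of them, with 33 to 108 reads each. The empty vector libraries had 0.975, 1.22 and 0.84 RPKM and the overexpression libraries 0.555, 0.592 and 0.509. The scrambled libraries had 0.388, 0.501 and 0.379 RPKM and the knockdown libraries 0.836, 0.611 and 0.637. None of the 4 groups overlapped with its neighbour in the order scrambled, overexpression, knockdown, empty vector. In a fit widened to the 16728 genes with at least 0.1 RPKM in 3 libraries, Rxrg fell with overexpression (-0.37, adjusted p = 0.00152) and rose with knockdown (0.25, adjusted p = 0.0171). The responses differed by -0.62 (adjusted p = 0.000438). In that fit 40.8% of all genes passed with overexpression, 37% with knockdown and 43.7% for the difference. A fold change on the log2(RPKM + 1) scale understates the change of so low a gene.

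**Figure D3:**
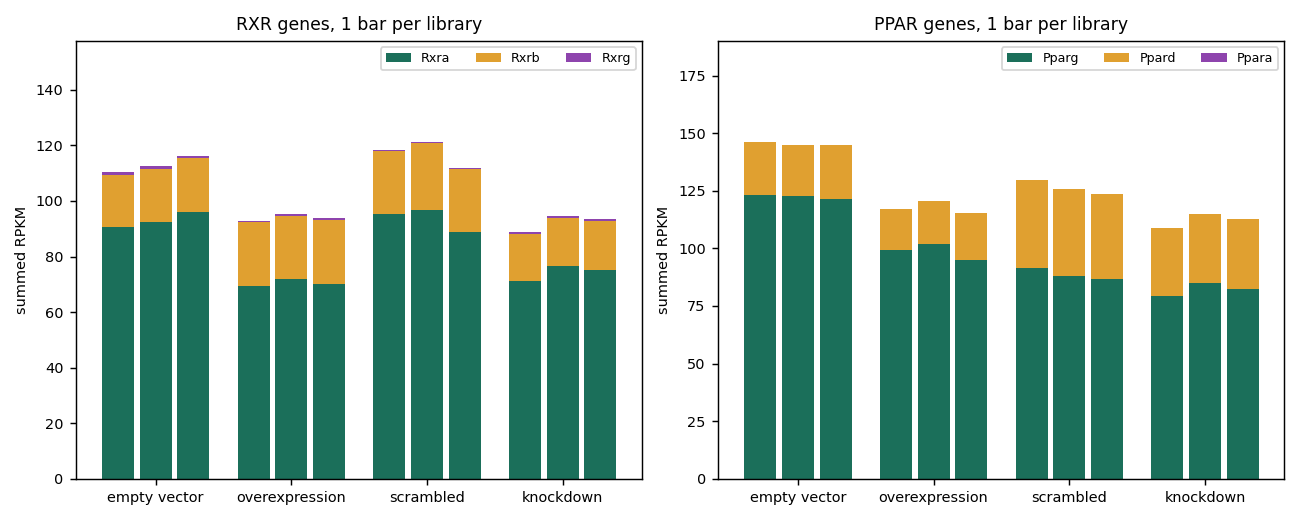
Summed RPKM (vertical axes, from 0) of the 3 RXR genes and of the 3 PPAR genes, stacked, 1 bar per library in the order of replicates. The Rxrb segment is largest relative to Rxra in the overexpression libraries, and the Ppard segment takes 29.5% to 29.9% of the PPAR bar in the scrambled libraries against 15.2% to 16.1% with the empty vector.

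Ppard encodes PPARdelta (chromosome 17, 28232700 to 28301474, plus strand). Its level was 22.89, 22.01 and 23.36 RPKM in the empty vector libraries and 17.62, 18.65 and 20.30 with overexpression. It was 38.27, 37.61 and 36.93 RPKM with the scrambled hairpin and 29.52, 30.15 and 30.62 with knockdown. All 4 groups stood clear of each other, in the order overexpression, empty vector, knockdown, scrambled hairpin. The overexpression mean was 0.829 times its control (log2 fold change -0.26, interval -0.36 to -0.16, adjusted p = 0.00048). The knockdown mean was 0.8 times its control (-0.31, interval -0.41 to -0.21, adjusted p = 0.000155). The difference of the responses was 0.05 (interval -0.09 to 0.19, adjusted p = 0.523).

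The larger gap for Ppard lay between the controls, where the scrambled group was 1.65 times the empty vector group (log2 fold change 0.70, interval 0.60 to 0.80, adjusted p = 3.99e-08). Both knockdown and scrambled libraries were therefore above all empty vector libraries. Of summed PPAR transcripts, Ppard made up 15.65% ± 0.465 in empty vector cells and 16.02% ± 1.36 in overexpressing cells (SD, n = 3). Its share was 29.8% ± 0.237 with the scrambled hairpin and 26.8% ± 0.515 with knockdown. Pparg, which makes up nearly all of the rest, had group means of 122.5, 98.8, 88.7 and 82.1 RPKM in the order empty vector, overexpression, scrambled hairpin and knockdown.

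Ppara encodes PPARalpha, the fatty acid sensor of liver and heart (chromosome 15, 85734983 to 85802819). It was too low to measure a change, with 4 to 30 reads per library and 144 in all. The empty vector libraries had 0.055, 0.109 and 0.0813 RPKM and the overexpression libraries 0.12, 0.213 and 0.12. The scrambled libraries had 0.0342, 0.0955 and 0.0275 RPKM and the knockdown libraries 0.0278, 0.0621 and 0.0624. The overexpression libraries were above all others, by a margin of 17 reads against 16 at the closest. In the widened fit, which Ppara entered mainly through those libraries, the overexpression difference was 0.09 (adjusted p = 0.112), and the knockdown difference was -0.0018 (adjusted p = 0.989).

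Nr1h2 encodes LXRbeta, the widely expressed oxysterol receptor (chromosome 7, 44549616 to 44553951, minus strand). It had 26.73, 27.81 and 28.18 RPKM in the empty vector libraries and 28.21, 29.10 and 26.47 with overexpression. It had 28.92, 31.05 and 29.84 RPKM with the scrambled hairpin and 23.75, 24.78 and 25.80 with knockdown. The first 2 groups overlapped, and the knockdown libraries were below all others. The overexpression difference was 0.02 (interval -0.08 to 0.12, adjusted p = 0.775), and its sign reversed under median-ratio scaling and TPM. Nr1h2 fell with knockdown to 0.828 times its control (-0.26, interval -0.36 to -0.16, adjusted p = 0.000458). The responses differed by 0.28 (interval 0.14 to 0.42, adjusted p = 0.00259).

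Its partner form LXRalpha, the product of Nr1h3, is the LXR form best known from fat and liver. Nr1h3 had group means of 69.36, 50.59, 38.99 and 54.89 RPKM for empty vector, overexpression, scrambled hairpin and knockdown. It fell with overexpression (-0.45, adjusted p = 6.29e-05) and rose with knockdown (0.48, adjusted p = 5.52e-05). Unlike for Nr1h2, the difference of its responses was negative (-0.93, adjusted p = 2.31e-06).

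Thra encodes the thyroid hormone receptor alpha (chromosome 11, 98740638 to 98769006, plus strand). Its other family member Thrb reached at most 0.123 RPKM in any library. Thra stood at 38.10, 36.60 and 38.74 RPKM in the empty vector libraries and 33.85, 34.22 and 33.48 with overexpression. It stood at 32.49, 34.08 and 31.74 RPKM with the scrambled hairpin and 29.28, 29.78 and 30.67 with knockdown. Neither comparison overlapped with its control, and the overexpression and scrambled groups overlapped each other. Thra fell to 0.895 times its control with overexpression (-0.16, interval -0.23 to -0.08, adjusted p = 0.00359) and to 0.913 times with knockdown (-0.13, interval -0.21 to -0.05, adjusted p = 0.0119). The knockdown call was lost without scrambled replicate 2 (-0.10, adjusted p = 0.058) and after median-ratio scaling (-0.08, adjusted p = 0.103). The difference of the responses was -0.03 (interval -0.14 to 0.08, adjusted p = 0.67).

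The 3' end of Thra overlaps that of Nr1d1, the gene of the clock repressor REV-ERBalpha, on the opposite strand. The shared exon sequence is 263 bases, 5.7% of the Thra exon bases (chr11:98768157-98768419). The strand setting of the counting is not given in the sources used here, and without strand, reads in that stretch cannot be told apart. Nr1d1 had group means of 33.7, 22.9, 36.6 and 23.8 RPKM in the order empty vector, overexpression, scrambled hairpin and knockdown. It fell in both comparisons (-0.54 with adjusted p = 5.99e-05 and -0.60 with adjusted p = 3.79e-05), and its part in the Thra values was not tested. Opposite-strand transcripts also overlap 7.46% of the exon bases of Nr2f2 and 2.42% of those of Nr2f1.

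The COUP transcription factors bind the same kind of DNA repeat as RXR pairs and mostly repress. Nr2f2 (COUP-TFII, chromosome 7, 70351944 to 70366735, minus strand) had 3.91, 3.96 and 3.97 RPKM in the empty vector libraries and 3.67, 3.72 and 4.13 with overexpression. It had 4.22, 3.72 and 4.10 RPKM with the scrambled hairpin and 4.05, 3.90 and 3.94 with knockdown. All neighbouring groups overlapped. The overexpression difference was -0.03 (interval -0.14 to 0.07, adjusted p = 0.596) and the knockdown difference -0.01 (interval -0.12 to 0.09, adjusted p = 0.839). The knockdown value turned positive after median-ratio scaling and quantile normalization.

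Nr2f1 (COUP-TFI, chromosome 13, 78188973 to 78199757, minus strand) was lower, with 213 to 363 reads per library. It had 1.247, 1.205 and 1.186 RPKM in the empty vector libraries and 1.336, 1.304 and 1.227 with overexpression. It had 1.333, 1.294 and 1.379 RPKM with the scrambled hairpin and 1.9, 1.534 and 1.796 with knockdown. The knockdown libraries were above all others, and the other 3 groups overlapped with their neighbours. Nr2f1 rose 1.31-fold with knockdown (log2 fold change 0.23, interval 0.12 to 0.34, adjusted p = 0.00282), while the overexpression difference was 0.05 (interval -0.06 to 0.16, adjusted p = 0.457). The difference of the responses was -0.18 (interval -0.34 to -0.02, adjusted p = 0.0515), and it passed in some alternatives, among them without knockdown replicate 2 (-0.24, adjusted p = 0.00708) and after median-ratio scaling (-0.23, adjusted p = 0.016). Nr2f1 made up 24.99% ± 0.917 of the COUP transcripts with the scrambled hairpin and 30.48% ± 1.99 with knockdown (SD, n = 3).

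Nr4a1 encodes NUR77, which binds DNA alone or with an RXR (chromosome 15, 101254269 to 101274795, plus strand). It had 6.53, 5.91 and 6.52 RPKM in the empty vector libraries and 7.79, 8.05 and 8.46 with overexpression. It had 11.57, 11.85 and 11.19 RPKM with the scrambled hairpin and 11.42, 10.76 and 9.93 with knockdown. The empty vector and overexpression groups did not overlap, both were below all scrambled and knockdown libraries, and these overlapped each other. Nr4a1 rose 1.28-fold with overexpression (log2 fold change 0.31, interval 0.20 to 0.43, adjusted p = 0.000318). The knockdown difference was -0.10 (interval -0.22 to 0.01, adjusted p = 0.133), and it passed without knockdown replicate 1 (-0.14, adjusted p = 0.0498). The responses differed by 0.42 (interval 0.25 to 0.58, adjusted p = 0.000502). Its relatives Nr4a2 and Nr4a3 were too low to test, at no more than 0.77 and 0.174 RPKM in any library.

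In all, the responses differed between overexpression and knockdown for 3 of 8 receptors, Rxrb, Nr1h2 and Nr4a1. Each had a higher log2 fold change with overexpression than with knockdown, a positive difference. This concerns fold changes against each control and not levels, since Nr4a1 had 8.1 RPKM with overexpression and 10.71 with knockdown. After median-ratio scaling 5 passed, with Rxra (adjusted p = 0.0488) and Nr2f1 (0.016) added. Over all genes the difference passed in 54.9%, and it was positive in 34.6%. The split of all genes was 3888 positive and 2285 negative, but 3009 and 3053 after median-ratio scaling and 3069 and 2989 after quantile normalization. On TPM it was 3396 and 2227.

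The control groups differed from each other in the receptors too. Nr4a1 was 1.83 times as high with the scrambled hairpin as with the empty vector (0.78, adjusted p = 5.29e-08), beside the 1.65 times of Ppard, and Rxrb was 1.21 times as high (0.26, adjusted p = 2.64e-05). Thra was at 0.867 times the empty vector level (-0.20, adjusted p = 0.000319), and Nr1h2 at 1.09 times (0.11, adjusted p = 0.037). The Nr1h2 call was lost in several alternatives, without empty vector replicate 1 (adjusted p = 0.131) or scrambled replicate 2 (0.137) among them. It was also lost after median-ratio scaling (0.009, adjusted p = 0.838) and quantile normalization (0.036, adjusted p = 0.431). Rescaling outside the mitochondrial genome removed it too (0.059, adjusted p = 0.186). Rxra, Nr2f1 and Nr2f2 did not pass (0.01, 0.08 and 0.02, adjusted p = 0.845, 0.195 and 0.744), although Nr2f1 passed on TPM (0.17, adjusted p = 0.0468). That is 5 of 8 called, 4 higher and 1 lower, where 71.8% of all genes passed, 44.8% higher and 27% lower, and 6 of 8 without overlap, where 78.9% of all genes had none. The split of all genes was 5037 higher and 3033 lower, but 3938 and 3990 after median-ratio scaling and 4045 and 3893 after quantile normalization. On TPM it was 5676 and 2364. In the widened fit Rxrg was lower in the scrambled group (-0.50, adjusted p = 9.36e-05), where 59.1% of all genes passed. The vector and the cultures of the 2 controls cannot be told apart, and this comparison shares its libraries with the overexpression and knockdown comparisons.

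Ppard and Nr4a1 varied most among the tested receptors, with group means that spanned 0.96 and 0.78 on the log2(RPKM + 1) scale. The profile over 12 libraries most like that of Ppard, among tested genes of at least 5 RPKM on average, was that of Dap (root mean square difference 0.0658), followed by Ppp2r1b (0.0724) and Slc43a3 (0.0746). The profiles most like that of Nr4a1 were those of Ugdh (0.0572), Fbxl14 (0.059) and E2f4 (0.065).

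Promoter sequence was available from RefSeq (GRCm38.p6) for 9 of the 10 genes, in 13 windows of 250 bases before to 50 after an annotated start. They were searched for the forkhead core TGTTTAC and for the nuclear receptor binding hexamer AGGTCA, on both strands. The forkhead core was found in 3.65% of 32851 such windows over all genes. It was found near the second annotated start of Rxrb, 59 bases before it (chr17:34032279-34032308, plus strand), and near the second annotated start of Nr2f1, 148 bases before it (chr13:78196580-78196609, minus strand). Both printed stretches overlap sequence annotated as untranslated exon in a transcript of the gene. These were the only matches to the forkhead core in the 13 windows, and they are shown with the match in capitals.
Rxrb: gcccccttgtttGTAAACAcgcgccctcga
Nr2f1: tagagttgtcttTGTTTACatggcaattga
The hexamer was found in 16.255% of all windows. Rxra held 2 of them before its second annotated start, 87 and 48 bases upstream, on opposite strands (chr2:27709193-27709222 and chr2:27709232-27709261, plus strand shown), and Rxrg held 1, 88 bases before its second start (chr1:167618165-167618194, plus strand).
Rxra, 87 bases before: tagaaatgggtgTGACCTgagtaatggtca
Rxra, 48 bases before: gggtggcaggaaAGGTCAgtcactctctgt
Rxrg: atcggggttgaaAGGTCAgctgaaagcttc
A match is a string of letters only, and no binding was measured here.

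**Figure D4:**
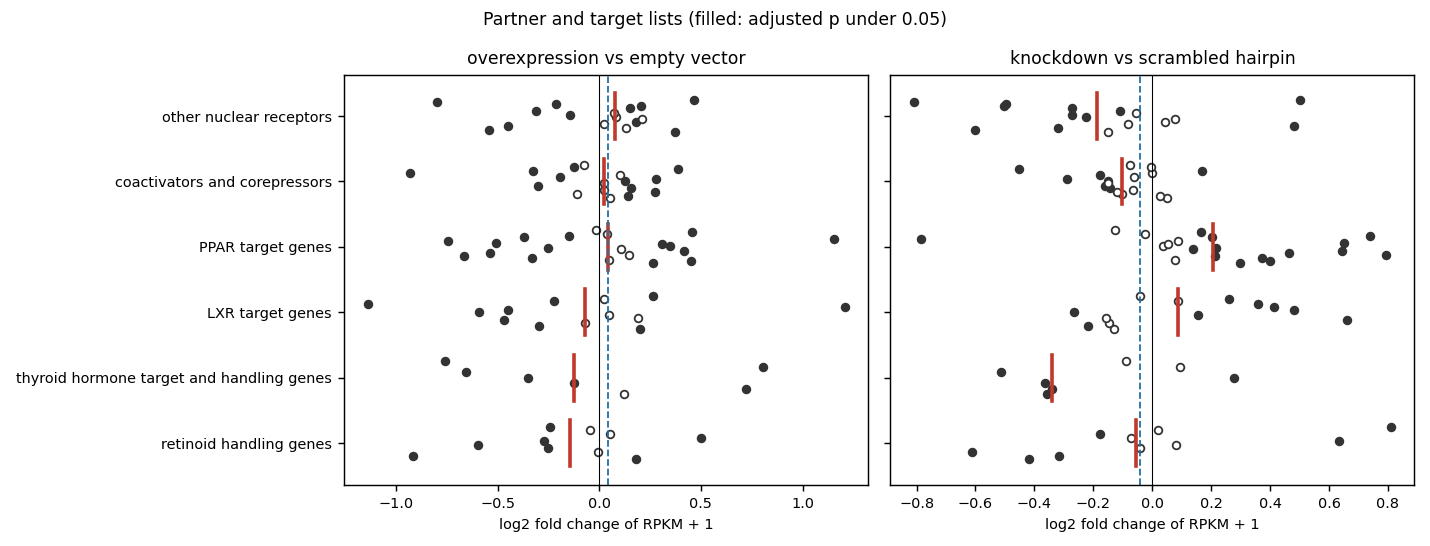
Log2 fold change of RPKM + 1 (horizontal axes) of each tested gene in 6 lists of receptors, coregulators and target genes, filled at adjusted p under 0.05, with the list median as a red bar and the median of all genes as a dashed line. The PPAR targets lie mostly right of 0 with knockdown, with a median of 0.21.

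The list counts that follow stand beside 31% higher and 20.3% lower of all genes with overexpression (median log2 fold change 0.04) and 18.7% higher and 31% lower with knockdown (median -0.04). Like the receptors, the lists were chosen with earlier results of these data known. Beyond the 10 genes, 16 of 38 other nuclear receptors were tested. With overexpression 5 rose and 6 fell (68.8% called, median 0.08), and with knockdown 2 rose and 9 fell (68.8%, median -0.19). The retinoic acid receptor gene Rarg fell with knockdown from 17.8 to 12.3 RPKM, as did Rora from 7.16 to 4.80. With overexpression Rarg rose from 14.63 to 17.02 RPKM and Rora fell from 5.538 to 4.64. Of 17 tested coactivators and corepressors, 6 rose and 5 fell with overexpression (64.7% called, median 0.02), and 1 rose and 6 fell with knockdown (41.2%, median -0.10). Leaving out 1 library moved these totals of 11 and 7 to 7 to 11 and 3 to 9, with the lowest counts without empty vector replicate 2 or overexpression replicate 2, and without scrambled replicate 1 or 2. The knockdown total was 4 without knockdown replicate 1 or 3. Nrip1, a corepressor that acts on many receptors in fat, fell with overexpression from 16.3 ± 0.477 to 8.11 ± 0.591 RPKM. Nrip1 did not pass with knockdown (12.86 to 12.88 RPKM, limma adjusted p = 0.983). The coactivator gene Ppargc1b rose with overexpression from 3.12 to 4.39 RPKM. Ppargc1b fell with knockdown from 5.61 to 3.84 RPKM. The coactivator gene Ncoa1 fell in both comparisons, from 14.07 to 11.23 and from 20.25 to 18.01 RPKM. Ncoa6 rose with overexpression from 8.237 to 10.26 RPKM and fell with knockdown from 10.4 to 8.38.

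Among target genes of these receptors, 13 of 20 tested PPAR targets rose with knockdown and 1 fell (70.0% called against 49.7% of all genes, median 0.21), while 7 rose and 8 fell with overexpression (75.0% against 51.4%, median 0.04). The knockdown total of 14 depended on the scaling, with 10 of 20 called on TPM and 17 after median-ratio scaling. On TPM the called share was close to that of all genes, with 1615 of 11245 called higher and 3710 lower. Between the controls, 3 PPAR targets were higher and 16 lower in the scrambled group (median -0.30), where 71.8% of all genes were called. Plin2, a lipid droplet coat gene, rose with knockdown from 142.2 to 237.8 RPKM and Cpt1a, of mitochondrial fatty acid import, from 1.73 to 3.26. With overexpression Plin2 fell from 99.28 to 89.28 RPKM and Cpt1a rose from 5.282 to 7.395. Pdk4, which restrains glucose oxidation, was the 1 that fell with knockdown, from 17.9 to 10.0 RPKM, and it rose with overexpression from 21.7 to 49.6. Lpl and Cd36, of fatty acid uptake, fell with overexpression from 1418 to 846.6 and from 675.2 to 464.9 RPKM. With knockdown Cd36 rose from 393.2 to 543.1 RPKM, and Lpl did not pass (limma adjusted p = 0.137). Of the mature fat cell markers, 10 of 10 fell with overexpression, where the PPAR targets were split, and 6 rose and 3 fell with knockdown. Of those markers, 3 (Fabp4, Plin1 and Lpl) are also in the PPAR list, and their part in the result was not tested. The marker Pparg is also counted among the other nuclear receptors.

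Of 13 tested LXR targets, 3 rose and 6 fell with overexpression (69.2% called against 51.4% of all genes, median -0.07) and 6 rose and 2 fell with knockdown (61.5% against 49.7%, median 0.09). Between the controls, 1 was higher and 10 lower in the scrambled group (84.6% called against 71.8% of all genes, median -0.59 beside 0.09). Of all genes, 44.8% were higher there and 27% lower. Nr1h3 is counted in this list and also among the other nuclear receptors. Pltp, of phospholipid transfer, rose with overexpression and with knockdown (19.6 to 46.5 and 19.1 to 25.8 RPKM), and Mylip fell in both comparisons (15.8 to 10.2 and 16.27 to 13.37). Apoe fell with overexpression (10.27 to 7.178) and rose with knockdown (5.43 to 9.19). The desaturase gene Scd1 did likewise (5873 to 2672 and 3050 to 3914). Of 7 tested genes of thyroid hormone response and handling, 2 rose and 4 fell with overexpression (85.7% called against 51.4% of all genes, median -0.12) and 1 rose and 4 fell with knockdown (71.4% against 49.7%, median -0.34). Thrsp, a lipogenic thyroid hormone target, fell with overexpression from 590.6 to 348.5 RPKM. Thrsp did not pass with knockdown (241.5 to 227.1 RPKM, limma adjusted p = 0.137). The transporter gene Slc16a10 rose with overexpression from 0.39 to 1.43 RPKM and did not pass with knockdown (limma adjusted p = 0.18). Slc16a10 reached the tested set through the overexpression libraries, where it is high, so its rise was favoured by the filter. Klf9 fell with overexpression from 59.26 to 54.3 RPKM and with knockdown from 62.6 to 48.4, and Ncoa4 also fell in both. Hr rose with overexpression from 2.749 to 5.181 RPKM and fell with knockdown from 2.61 to 1.85. Of 10 tested retinoid handling genes, 2 rose and 5 fell with overexpression (70.0% called against 51.4%, median -0.14) and 2 rose and 4 fell with knockdown (60.0% against 49.7%, median -0.06). Aldh1a7 fell in both (187.7 to 99.1 and 427.2 to 342.5 RPKM), and Dhrs3 fell with overexpression (38.33 to 25.02). Dhrs3 did not pass with knockdown (55.8 to 59.07 RPKM, limma adjusted p = 0.0938). Retsat fell with overexpression (148.2 to 125.3) and rose with knockdown (54.5 to 96.2), as did Dhrs9 (12.62 to 10.29 and 13.4 to 21.3). Aldh1a1 rose with overexpression (7.604 to 8.766) and fell with knockdown (4.27 to 2.94). Between the controls, 2 tested thyroid hormone genes were higher and 2 lower in the scrambled group (57.1% called, median 0.08). Of the retinoid handling genes, 5 were higher and 3 lower (80.0%, median 0.25).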

How the data were processed

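The authors deposited RPKM per gene and library; their numbers were RPKM divided by 1000 and were multiplied by 1000 here. Per the submitters' processing notes, HISAT2 2.1.0 and featureCounts of Subread 1.5.3 were used on mm10; settings are not given in the sources used here. Gene identifiers were matched to GENCODE M21 (GRCm38) for 28896 of 28948. Multiplied by exon length, 98.8% to 98.9% of values above 0 per library were whole multiples of the step of 1 read, within 0.05 of a read. This gave the read numbers used for depth; for Rxra the length in M21 did not give whole reads in most libraries, so none are given. Genes with at least 1 RPKM in 3 libraries entered limma 3.58.1 (R 4.3.3) on the log2(RPKM + 1) scale, as 1 model of 4 groups with a variance trend, after a test on simulated data. Adjusted p-values (Benjamini-Hochberg) run over all 11245 genes, and an adjusted p under 0.05 is a call. Values are mean ± SD over 3 libraries, and fold changes on this scale understate those of low genes. Alternatives were other pseudocounts, filters, scalings, variance models, a replicate block, limma's voom on recovered reads (11243 genes) and leaving out each library. The receptors and gene lists were chosen with earlier results of these data known. Genes named from lists are up to 3 per comparison with the smallest adjusted p among those called (1 of them is not reported here), and likeness was measured on centred profiles of log2(RPKM + 1). Thrb, Nr4a2 and Nr4a3 were named for kinship, Nr1h3 and Nr1d1 as the related and the overlapping gene. Figures were made with Python 3.11.15 and matplotlib 3.10.9.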

Additional observations from a re-analysis of the deposited data

How the results depend on the processing

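No called direction of the 8 tested receptors reversed under any alternative run, and the number of receptors called stayed within 1.5 times its value in 98 of 99 cases. The exception was the difference of the responses, with 5 called after median-ratio scaling (3 to 4 when leaving out 1 library). Coregulators called with overexpression numbered 7 without a filter and 7 with only the libraries compared (7 to 11 leaving out 1 library). With knockdown they numbered 4 without a filter, 3 after median-ratio scaling and 3 after quantile normalization (3 to 9 leaving out 1 library). Signs reversed only for differences that did not pass. For Nr1h2 with overexpression the value was -0.022 (median-ratio) and -0.034 (TPM), and -0.012 to 0.054 leaving out 1 library. For Nr2f2 with knockdown it was 0.030 (median-ratio) and 0.052 (quantile), and -0.055 to 0.017 leaving out 1 library. The Ppard difference of responses was -0.039 (median-ratio), and -2.81e-05 to 0.097 leaving out 1 library; that of Nr2f2 ran from -0.063 to 0.023. Between the controls, Rxra gave -0.098 (median-ratio), -0.036 (quantile) and -0.047 (rescaled outside the mitochondrial genome), and -0.014 to 0.047 leaving out 1 library. Nr2f2 gave -0.069, -0.076 and -0.028 in the same 3 settings, and -0.012 to 0.061 leaving out 1 library. The causes were not tested.

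Replicate numbers did not pair the samples (correlations of deviations between same-numbered libraries from -0.07 to 0.12). With replicate number as a block, 5888 genes were called with overexpression, 5709 with knockdown, 6328 for the difference and 8164 between controls. Among the receptors the block changed the call for the Nr2f1 difference of responses (adjusted p = 0.0487) and no other. Depth limits Ppara and, less so, Rxrg and Nr2f1.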

Other observations

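Among the receptors of the wider family, Vdr, the vitamin D receptor gene, was higher than control in both comparisons and was picked after its values were seen. It rose from 5.37 to 7.81 RPKM with overexpression (log2 fold change 0.47, limma adjusted p = 6.2e-05) and from 6.05 to 8.98 RPKM with knockdown (0.50, adjusted p = 5.02e-05). Of all genes, 31% were called higher with overexpression and 18.7% with knockdown, and the share called higher in both is not given here. Esrra, the gene of the estrogen-related receptor alpha, which drives mitochondrial genes, was picked in the same way. It rose with overexpression from 22.6 to 29.6 RPKM (0.37, adjusted p = 0.00125), and its knockdown difference did not pass (-0.15, adjusted p = 0.118).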
